A study of Homo sapiens with 6 samples.

Results

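The genes described here are the metallothioneins MT1E, MT1F, MT1G, MT1X and MT2A, the zinc-sensing transcription factor gene MTF1, the zinc exporter gene SLC30A1 and the zinc importer genes SLC39A1, SLC39A6 and SLC39A10. Members were matched by gene name, from a set drawn up with earlier results of these data known: 9 of the 10 names had a row among the 29435 rows of the deposited table, and MT1G was not analysed here. By the labels the RNA came from HepG2, an established human hepatocellular carcinoma line. The cells were exposed for 4 h to DMSO, the solvent, or to 20 µM saikosaponin A (SsA), a plant saponin. Each group had 3 libraries, numbered 1 to 3, and both were cultured in DMEM with fetal bovine serum. Whether these were separate cultures is not in the labels, and p-values here reflect the spread among these libraries, which may be technical.

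Metallothioneins are small proteins of very high cysteine content whose thiols hold zinc, copper and cadmium, and liver cells are a main site of their synthesis. MTF1 binds DNA when free zinc rises, through short sequences called metal response elements, and switches on metallothionein genes and SLC30A1, whose product pumps zinc out of the cell. Proteins of the SLC39 family move zinc the other way, into the cytosol.

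The coding sequences below show what the 4 measured metallothioneins share, which bears on how well reads can be told apart between them. They were read from GENCODE 29 transcripts (GRCh38), and capitals mark the cysteine codons. All 4 genes lie on the plus strand of chromosome 16, have 3 exons in the transcript used and encode 61 amino acids over 186 coding bases, stop codon included. MT2A (ENSG00000125148) spans chr16:56608584-56609497, MT1E (ENSG00000169715) chr16:56625475-56627112, MT1F (ENSG00000198417) chr16:56657731-56660698 and MT1X (ENSG00000187193) chr16:56682470-56684196.
MT2A: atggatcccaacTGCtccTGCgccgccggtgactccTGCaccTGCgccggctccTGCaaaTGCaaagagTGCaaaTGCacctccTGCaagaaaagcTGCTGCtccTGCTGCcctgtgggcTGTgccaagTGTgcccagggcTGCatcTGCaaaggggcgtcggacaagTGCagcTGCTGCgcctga
MT1E: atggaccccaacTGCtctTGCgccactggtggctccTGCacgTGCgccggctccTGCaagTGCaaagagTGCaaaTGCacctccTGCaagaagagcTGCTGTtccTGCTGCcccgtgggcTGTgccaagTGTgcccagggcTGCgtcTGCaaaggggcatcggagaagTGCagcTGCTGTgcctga
MT1F: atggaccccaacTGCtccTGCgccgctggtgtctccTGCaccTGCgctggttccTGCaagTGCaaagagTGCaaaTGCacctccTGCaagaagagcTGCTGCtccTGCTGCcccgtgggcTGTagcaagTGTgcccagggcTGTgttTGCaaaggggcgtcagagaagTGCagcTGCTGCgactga
MT1X: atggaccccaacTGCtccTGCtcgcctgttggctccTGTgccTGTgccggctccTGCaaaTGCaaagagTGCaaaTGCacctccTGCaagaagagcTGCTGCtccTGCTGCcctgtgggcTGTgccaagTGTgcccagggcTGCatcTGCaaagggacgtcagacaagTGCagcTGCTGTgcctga

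Each of these reading frames holds 20 cysteine codons. Identity between pairs ran from 88.7% (MT1F and MT1X) to 92.5% (MT2A with MT1E and with MT1X) over 186 aligned bases. The full transcripts differ more than the coding parts do. Of all 50-base stretches, 4.88% of the MT2A transcript, 5.34% of MT1E and 3.59% of MT1F also occurred in an annotated transcript of another gene. For MT1X the share was 45.1%, and the gene sharing most was AC026461.1, a non-coding gene that covers MT1X on the same strand. Among the transporters, 71.3% of such stretches of SLC39A1 also lay in AL358472.7, a gene that overlaps it on its strand, and SLC30A1, SLC39A6 and SLC39A10 shared none. The level of MT1X and of SLC39A1 may therefore depend on how the authors' counting divided reads from shared sequence, a step the labels leave out.

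Promoters were searched because MT2A, MT1X and SLC30A1 are textbook targets of MTF1. The window was the 250 bases before the transcription start in a RefSeq table (GRCh38.p14), which held entries for 7 of the 10 genes. The core of the metal response element was searched as TGCGCNC and TGCACNC on both strands, and capitals mark the matches. The MT2A window is chr16:56608334-56608583 (plus strand), the MT1X window chr16:56682220-56682469 (plus strand) and the SLC30A1 window chr1:211579162-211579411 (minus strand).
MT2A: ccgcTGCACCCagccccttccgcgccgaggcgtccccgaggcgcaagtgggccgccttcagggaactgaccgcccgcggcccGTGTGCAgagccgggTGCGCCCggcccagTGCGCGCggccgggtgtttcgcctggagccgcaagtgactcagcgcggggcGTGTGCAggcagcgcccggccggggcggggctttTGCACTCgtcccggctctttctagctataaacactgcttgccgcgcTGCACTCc
MT1X: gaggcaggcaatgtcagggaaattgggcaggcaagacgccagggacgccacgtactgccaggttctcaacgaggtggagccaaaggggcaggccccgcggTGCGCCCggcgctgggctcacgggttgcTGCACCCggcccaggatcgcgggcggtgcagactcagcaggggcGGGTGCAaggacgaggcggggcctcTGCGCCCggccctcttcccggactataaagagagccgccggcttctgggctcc
SLC30A1: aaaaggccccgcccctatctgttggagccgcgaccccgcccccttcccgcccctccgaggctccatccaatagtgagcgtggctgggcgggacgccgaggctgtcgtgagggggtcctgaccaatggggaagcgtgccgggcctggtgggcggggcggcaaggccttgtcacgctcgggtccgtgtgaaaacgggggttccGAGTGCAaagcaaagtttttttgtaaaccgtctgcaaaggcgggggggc

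MT2A held 7 matches, from 246 to 8 bases before the start, MT1X held 4 and SLC30A1 held 1, on the opposite strand. Of 35116 windows of this length, 24.8% held at least 1 match, 0.370% at least 4 and 0.0313% (11 windows) at least 7. SLC39A6 held 1 match, SLC39A1 held 1 in only 1 of its 2 windows, and MTF1 and SLC39A10 held 0. A match describes letters in the window and not binding, and no match says only that these letters were not in it.

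**Figure D1:**
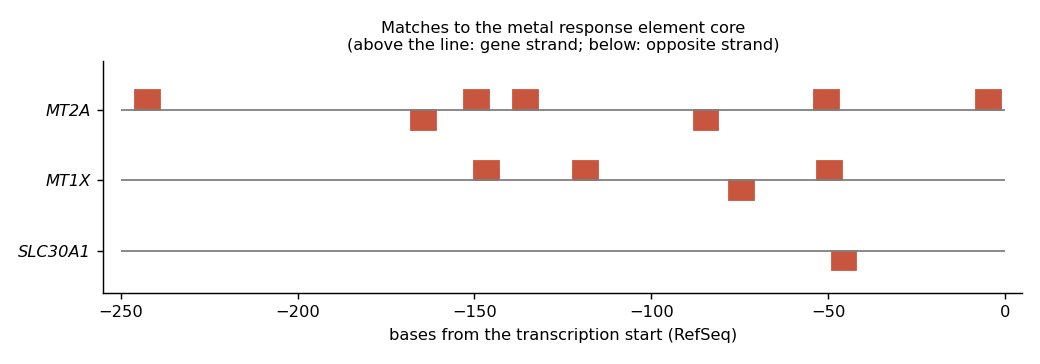
Positions of matches to the metal response element core in the 250 bases before the start of MT2A, MT1X and SLC30A1, with the distance from the RefSeq transcription start in bases on the horizontal axis. Boxes above a line are matches on the gene's strand and boxes below it on the opposite strand: MT2A has 7, MT1X 4 and SLC30A1 1.

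Total counts were 57768359 to 74912492 per library. DMSO replicate 3 and SsA replicate 1 stood apart, with 14.9% and 18.8% of counts on mitochondrially encoded genes against 6.19% to 8.28% in the other 4 libraries, so results are also given without those 2. The liver label was checked by marker genes. Of 20 hepatocyte genes listed, only 13 had a row. Of these, 9 had a mean below 0.1 FPKM (reads scaled to gene length and library size), among them APOA1, TF, FGA, FGB, FGG and HNF4A. Only 3, VTN, C3 and CEBPA, averaged at least 1 FPKM, so these markers did not bear out the liver label. The hepatocyte list summed to 8.21 to 10.6 FPKM in DMSO and 9.67 to 11.4 with SsA. Fibroblast and stellate cell markers summed to 36.4 to 48.0 FPKM in DMSO and 31.0 to 37.7 with SsA (5 of 9 at 1 FPKM or more, COL1A1 among them). In that list DCN, THY1 and POSTN averaged below 0.1 FPKM. Markers of endothelium summed to at most 1.01 FPKM, those of leukocytes to at most 4.34, and those of other epithelia to 270 to 356 in DMSO and 306 to 442 with SsA. In that last list KRT7 and KRT17 averaged at least 1 FPKM, and the other 4 of 6 with a row, TP63, KRT20, EPCAM and CDH1, below 0.1 FPKM. The part of such differences in the results below was not tested.

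After SsA the metallothionein transcripts and that of the importer SLC39A1 were more abundant, while those of the sensor MTF1 and of the exporter SLC30A1 were less abundant. Of the 8 genes with at least 1 FPKM in 3 or more libraries, 4 rose (MT1E, MT1X, MT2A, SLC39A1), 2 fell (MTF1, SLC30A1), and SLC39A6 and SLC39A10 did not pass (edgeR, quasi-likelihood test, adjusted p under 0.05 after Benjamini-Hochberg correction). In the same fit 53.8% of all 11427 tested genes were called, 25.9% higher and 27.9% lower, so a share of 6 in 8 was not far from that of all genes. The median log2 fold change was 0.36 over the 8 and 0.03 over all tested genes. In these 6 genes the groups did not overlap, which held for 62.8% of all tested genes (30.4% with SsA higher and 32.4% with SsA lower). In the 4 libraries of low mitochondrial share 5 of the 8 passed as higher and 2 as lower, where 67.8% of tested genes were called (33.3% higher and 34.5% lower). With a linear correction for transcript length in all 6 libraries, given below, MT1E, MT1X, MT2A and SLC30A1 did not pass. In that fit 39.3% of all tested genes were called. In bulk RNA, less RNA per cell and fewer cells of a type cannot be told apart.

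**Figure D2:**
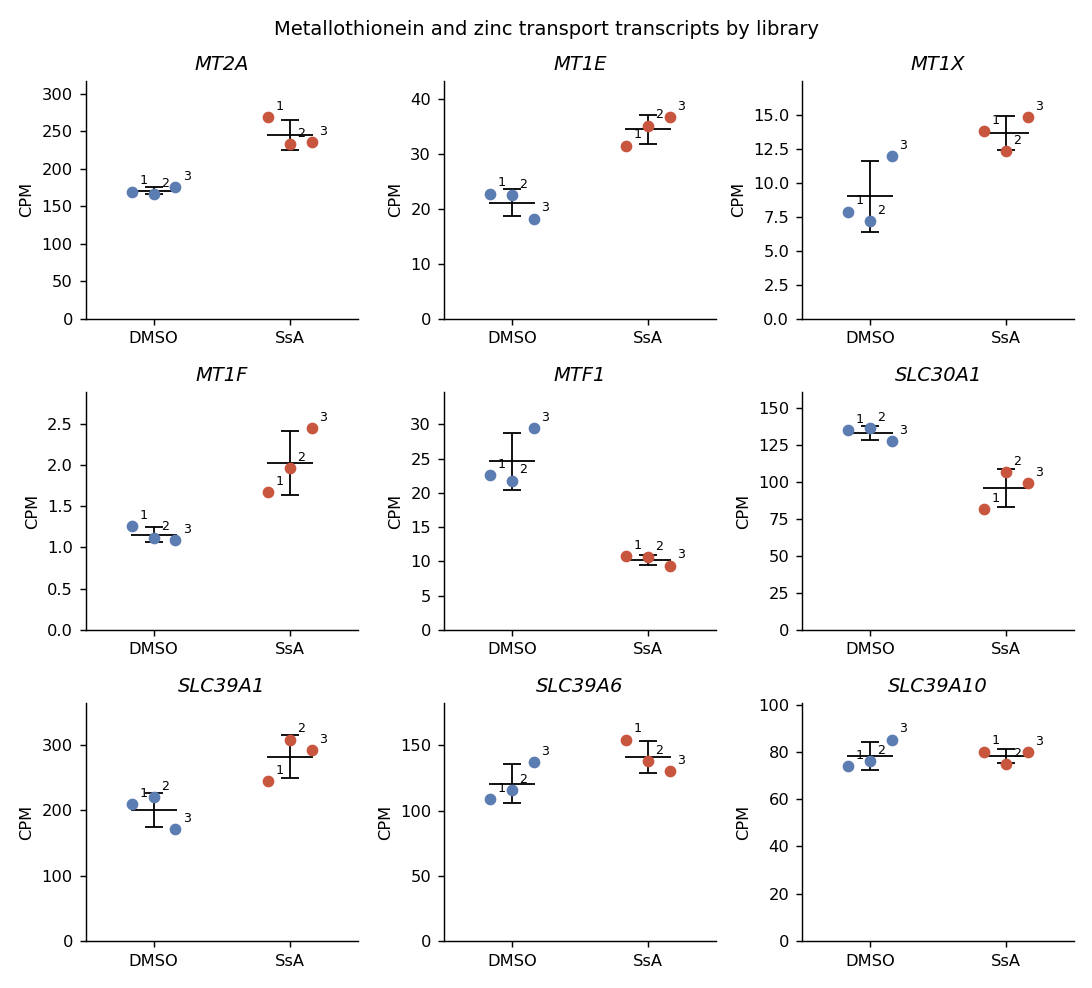
Level of each transcript in CPM (counts scaled to library size) by library, with points labelled by replicate number, the mean as a wide bar and the SD over 3 libraries as whiskers. The 3 SsA points lie above the 3 DMSO points for MT2A, MT1E, MT1X, MT1F and SLC39A1 and below them for MTF1 and SLC30A1, and the groups overlap for SLC39A6 and SLC39A10.

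MT2A was by far the most abundant metallothionein. Its level was 169, 167 and 175 CPM (counts scaled to library size) in DMSO replicates 1, 2 and 3 and 269, 233 and 235 CPM with SsA. All SsA libraries lay above all DMSO libraries, with SsA replicate 1, a library of high mitochondrial share, the highest. The rise was 1.44-fold (0.53 ± 0.07 in log2 units, SE, n = 3 per group; adjusted p = 0.00130 by edgeR), and without the 2 libraries of high mitochondrial share the log2 fold change was 0.45 ± 0.04 (edgeR adjusted p = 1.29e-05).

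MT1E stood at 22.8, 22.5 and 18.2 CPM in DMSO and at 31.5, 35.2 and 36.7 CPM with SsA. The groups were clearly apart, and the lowest value of each group came from the library of high mitochondrial share. Its rise was 1.63-fold (0.70 ± 0.11 in log2 units, SE; adjusted p = 0.00214 by edgeR), and 0.64 ± 0.07 on the log2 scale without those 2 libraries (edgeR adjusted p = 5.94e-05).

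MT1X, which shares sequence with AC026461.1, was at 7.87, 7.17 and 11.98 CPM in DMSO and at 13.8, 12.3 and 14.8 CPM with SsA. DMSO replicate 3 nearly reached the lowest SsA library. In log2 units the change was 0.60 ± 0.21 (SE; adjusted p = 0.0439 by edgeR), and 0.82 ± 0.14 without the 2 libraries of high mitochondrial share (edgeR adjusted p = 8.67e-04). MT1X no longer passed without DMSO replicate 1 (edgeR adjusted p = 0.121), DMSO replicate 2 (0.114), SsA replicate 1 (0.0770), SsA replicate 2 (0.0715) or SsA replicate 3 (0.126).

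MT1F was the rarest of the 4, at 1.26, 1.12 and 1.09 CPM in DMSO and 1.67, 1.96 and 2.44 CPM with SsA. It reached 1 FPKM in SsA replicate 3 only and so was left out of the test above. In a fit of all 29435 rows without the filter, in which 20.7% were called and 9.95% called higher, MT1F changed by 0.87 ± 0.26 in log2 units (SE; adjusted p = 0.0491 by edgeR). That call was lost without DMSO replicates 1 (edgeR adjusted p = 0.0963), 2 (0.128) or 3 (0.106), without SsA replicates 2 (0.110) or 3 (0.185), in the 4 libraries of low mitochondrial share (0.0584), with a linear correction for transcript length (0.0513), and with the replicate block (0.149).

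Summed, the 4 metallothioneins took 201, 197 and 207 CPM in DMSO and 316, 282 and 289 CPM with SsA, a ratio of means of 1.47. Their proportions moved little. MT2A gave 84.5% ± 0.36 of the sum in DMSO and 83.0% ± 1.93 with SsA (SD, n = 3), MT1E 10.5% ± 1.46 and 11.7% ± 1.5, and MT1X 4.45% ± 1.2 and 4.62% ± 0.44. For each of these shares the groups overlapped. The pseudogene rows MT2P1, MT1DP, MT1P1, MT1P3 and MT1XP1 stayed under 1 FPKM in every library.

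MTF1, on the minus strand of chr1:37809574-37859592 (ENSG00000188786), showed the largest change of the set. It was at 22.6, 21.8 and 29.4 CPM in DMSO and at 10.7, 10.6 and 9.37 CPM with SsA. Every SsA library was below every DMSO library, and DMSO replicate 3, of high mitochondrial share, was the highest. The fall was 2.41-fold (log2 fold change -1.27 ± 0.14 SE, edgeR adjusted p = 5.19e-04). Of all tested genes 5.42% were called lower by at least 2-fold. Such falls were more common among protein-coding genes with transcripts as long as that of MTF1 (7972 nt). In the group of 7543 to 34526 nt the lower quartile of the log2 fold change was -1.02. Without the 2 libraries of high mitochondrial share the log2 fold change was -1.18 ± 0.11 (edgeR adjusted p = 2.40e-05). MTF1 passed as lower in all 20 alternatives in which it was tested, with log2 fold changes from -1.36 to -0.71.

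SLC30A1, which encodes the zinc exporter of the plasma membrane, lies on the minus strand of chr1:211571568-211579161 (ENSG00000170385). It measured 135, 136 and 128 CPM in DMSO and 81.5, 107 and 99.5 CPM with SsA. The groups were apart, with SsA replicate 1 the lowest library. In log2 units the change was -0.47 ± 0.10 (SE; adjusted p = 0.00796 by edgeR), and -0.43 ± 0.05 without the 2 libraries of high mitochondrial share (edgeR adjusted p = 9.75e-05). MT2A and SLC30A1, both targets of MTF1 in textbooks, thus moved in opposite directions: the ratio of MT2A to SLC30A1 CPM was 1.28 ± 0.08 in DMSO and 2.62 ± 0.60 with SsA (SD, n = 3), 1.22 to 1.38 against 2.18 to 3.30. This ratio sets a short transcript (903 nt) against a long one (5474 nt), and with a linear correction for transcript length neither gene passed (MT2A 0.12, edgeR adjusted p = 0.355, and SLC30A1 -0.26, 0.103).

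SLC39A1 encodes a zinc importer of the plasma membrane, on the minus strand of chr1:153959099-153967621 (ENSG00000143570). Its level was 209, 221 and 171 CPM in DMSO and 245, 308 and 292 CPM with SsA. The groups did not overlap in CPM, and in each the library of high mitochondrial share was the lowest. In log2 units the change was 0.49 ± 0.12 (SE; adjusted p = 0.0136 by edgeR), 0.46 ± 0.04 without those 2 libraries (edgeR adjusted p = 2.68e-05), and it no longer passed without SsA replicate 2 (edgeR adjusted p = 0.0523). On the deposited FPKM scale SsA replicate 1 (54.2) lay below DMSO replicates 1 and 2 (58.7 and 62.1), and SLC39A1 did not pass there (log2 fold change 0.33, limma adjusted p = 0.229).

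The importers SLC39A6 and SLC39A10, whose products are close relatives, gave no call. SLC39A6 (minus strand, chr18:36108531-36129381, ENSG00000141424) was at 109, 116 and 137 CPM in DMSO and 155, 138 and 130 CPM with SsA. DMSO replicate 3 lay inside the range of the SsA libraries. Its change was 0.22 ± 0.11 in log2 units (SE; adjusted p = 0.113 by edgeR), but it passed as higher without DMSO replicate 3 (0.31, edgeR adjusted p = 0.0335) and without both libraries of high mitochondrial share (0.23 ± 0.05, edgeR adjusted p = 0.00453). SLC39A10 (plus strand, chr2:195575977-195737702, ENSG00000196950) was at 73.9, 75.9 and 85.2 CPM in DMSO and 80.1, 74.9 and 80.0 CPM with SsA. The groups were mixed, with a log2 fold change of 0.00035 ± 0.08 (SE, edgeR adjusted p = 0.997).

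Per length, on the deposited FPKM scale, the order in DMSO was MT2A (169 ± 10.4 FPKM, SD, n = 3), SLC39A1 (54.1 ± 11.2), SLC39A6 (29.6 ± 1.29), SLC30A1 (20.6 ± 2.45), MT1E (18.4 ± 3.64), SLC39A10 (10.2 ± 0.20), MT1X (4.65 ± 0.90), MTF1 (2.77 ± 0.22) and MT1F (0.557 ± 0.087). SLC30A1 and MT1E overlapped in DMSO, and other neighbours did not. With SsA MT1E (26.6 ± 3.66) stood above SLC30A1 (13.3 ± 2.58) in all libraries, and MTF1 (1.04 ± 0.08) overlapped MT1F (0.880 ± 0.210).

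Fold changes in these libraries followed transcript length, and the genes here span its range. Across 10040 protein-coding genes, which are not independent replicates, the slope was -0.43 on the log2 scale per doubling of the longest annotated transcript. Genes were therefore set beside the protein-coding genes of their length group, 10 groups of 1004 genes each. MT2A (903 nt) and MT1E (729 nt) fell in the shortest group, whose median log2 fold change was 0.64 with quartiles of 0.44 and 0.82, and both lay between those quartiles. SLC30A1 (5474 nt, -0.47) also lay between the quartiles of its group (-0.57 and -0.04). MTF1 (7972 nt) lay below the lower quartile of the longest group (-1.27 against -1.02). SLC39A1 (2723 nt) lay above the upper quartile of its group (0.49 against 0.31), as did MT1X (1727 nt, 0.60 against 0.59), SLC39A6 (3543 nt, 0.22 against 0.19) and SLC39A10 (5432 nt, 0.00035 against -0.04). The place of MT1X rests on its longest annotated transcript. Its 3-exon coding transcript has 450 nt, a length of the shortest group, and 0.60 lay between the quartiles of that group (0.44 and 0.82).

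**Figure D3:**
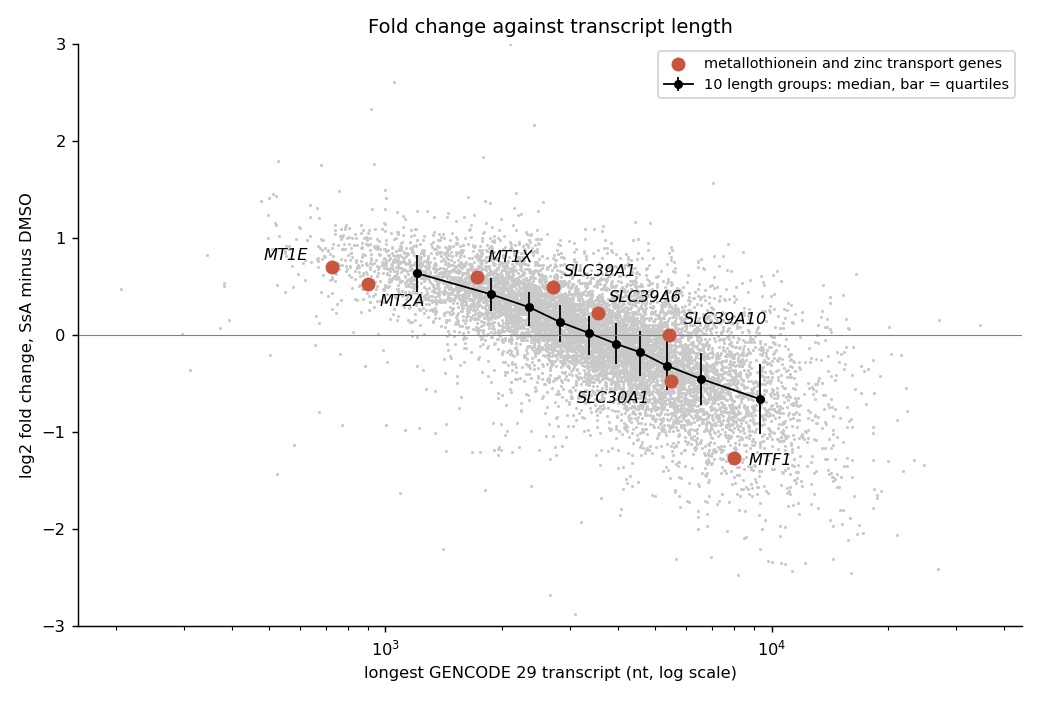
Log2 fold change, SsA minus DMSO, against the longest GENCODE 29 transcript in nucleotides on a log axis, for tested protein-coding genes in grey (11 lie beyond the vertical axis), with the median and quartiles of 10 length groups in black and the 8 tested genes in red. MT2A, MT1E and SLC30A1 lie within the quartiles of their group, MTF1 below and SLC39A1 above.

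With a correction for a linear length trend in each library, 2 of the 8 genes passed as higher, SLC39A1 and SLC39A10, and 1 as lower, MTF1 (39.3% of all tested genes were called in that fit, 20.5% higher and 18.8% lower). SLC39A1 changed by 0.46 ± 0.12 in log2 units (SE; adjusted p = 0.0221 by edgeR), SLC39A10 of 0.21 ± 0.07 (edgeR adjusted p = 0.0477) and MTF1 of -0.92 ± 0.12 (edgeR adjusted p = 0.00184). The metallothioneins did not pass: MT2A was at 0.12 ± 0.09 (edgeR adjusted p = 0.355), MT1E at 0.22 ± 0.09 (0.0830) and MT1X at 0.41 ± 0.21 (0.168). SLC30A1 was at -0.26 ± 0.11 (edgeR adjusted p = 0.103). With the same correction in the 4 libraries of low mitochondrial share, 58.1% of tested genes were called, 31.1% higher and 27.0% lower. SLC39A1, SLC39A6 and SLC39A10 passed there as higher and MTF1 as lower. MT1X (0.64 ± 0.14, edgeR adjusted p = 0.00471) also passed as higher and SLC30A1 (-0.22 ± 0.05, edgeR adjusted p = 0.00602) as lower, while MT2A (0.04 ± 0.04, 0.417) and MT1E (0.15 ± 0.07, 0.0839) did not pass. Both corrected values of MT1X rest on the length of 1727 nt and not on the 450 nt of its coding transcript. A smooth length correction left SLC39A10 higher and MTF1 lower, where 31.2% of tested genes were called (15.6% in each direction). With lengths implied by count and FPKM, MT1E and SLC39A1 were higher and MTF1 and SLC30A1 lower, where 44.6% were called (23.2% higher and 21.4% lower).

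**Figure D4:**
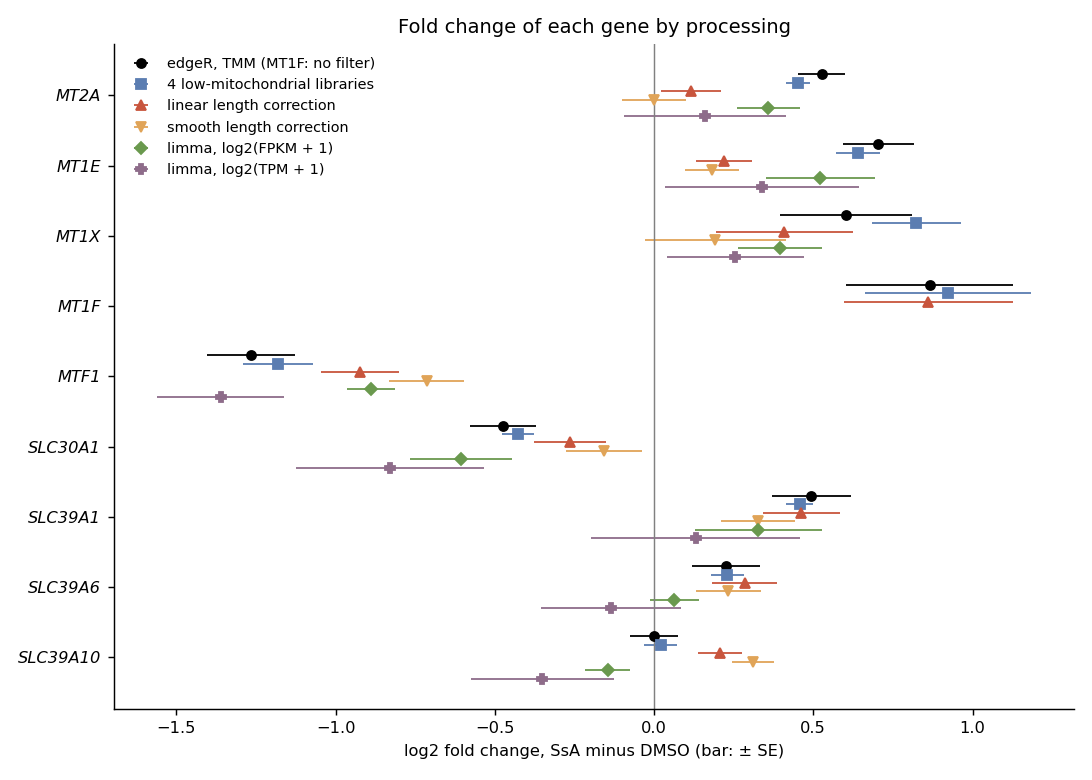
Log2 fold change, SsA minus DMSO, with its SE for each of the 9 genes under 6 kinds of processing (MT1F under 3, all without the expression filter). MTF1 stays below 0 in each, from -1.36 to -0.71, and MT2A moves from 0.53 to 0.12 with the linear length correction.

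The other genes of these families were measured from lists of named family members. Among the SLC30 exporters 5 of 8 with a row were tested: SLC30A1 fell, 0 rose and 4 did not pass, with a median log2 fold change of -0.026, where 25.9% of all tested genes rose and 27.9% fell. These 4 were SLC30A5 (0.16 ± 0.08, SE) and SLC30A7 (-0.21 ± 0.10), which load zinc into the secretory pathway, and SLC30A6 (-0.03 ± 0.07) and SLC30A9 (0.10 ± 0.07), with edgeR adjusted p from 0.103 to 0.777. SLC30A2, SLC30A3 and SLC30A4 averaged at most 0.489 FPKM. With the linear length correction SLC30A5 (0.30, edgeR adjusted p = 0.0263) and SLC30A9 (0.35, 0.0119) passed as higher, 2 of 5 where 20.5% of all genes did. SLC30A5 also passed without SsA replicate 1 (0.22, edgeR adjusted p = 0.0410).

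Of the SLC39 importers 9 of 13 with a row were tested, and 2 rose, 0 fell and 7 did not pass, around a median of 0.20. The share that rose was near the 25.9% of all tested genes, of which 27.9% fell. SLC39A8, a carrier of zinc, manganese and cadmium, went from 42.0 ± 1.40 to 48.4 ± 0.65 CPM (SD, n = 3), which is 0.20 ± 0.06 in log2 units (SE; adjusted p = 0.0278 by edgeR). SLC39A8 did not pass without DMSO replicate 1 (edgeR adjusted p = 0.0782), DMSO replicate 2 (0.111), SsA replicate 2 (0.0737) or SsA replicate 3 (0.0731), and with the replicate block (0.10). SLC39A13 (0.24 ± 0.09), SLC39A3 (0.31 ± 0.15) and SLC39A7, the importer from the endoplasmic reticulum (0.17 ± 0.11), had edgeR adjusted p of 0.0626, 0.123 and 0.217. SLC39A3 passed as higher without DMSO replicate 1 (0.50, edgeR adjusted p = 0.0136). With the linear length correction 5 of the 9 passed as higher and 0 as lower, where 20.5% of all genes were higher and 18.8% lower.

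Among other genes of zinc sensing and movement, 1 of 8 tested rose and 2 fell, MTF1 included, where 25.9% of all tested genes rose and 27.9% fell. TRPM7, a channel kinase that passes zinc and magnesium, fell by 0.46 in log2 units (SE 0.06; edgeR adjusted p = 7.26e-04), and its value was -0.034 with the linear length correction (edgeR adjusted p = 0.679) and 0.23, passed as higher, with a smooth one (edgeR adjusted p = 0.0274). CBWD1, of a family of zinc metallochaperones, rose by 0.46 ± 0.15 (SE, edgeR adjusted p = 0.0366), and its copy CBWD2 was at 0.31 ± 0.11 (0.0564), and passed without SsA replicate 1 (0.42, 0.00577). Reads of these 2 copies may be divided between them, so their separate values are uncertain, and CBWD1 lost its call without each of the libraries except SsA replicate 1 (edgeR adjusted p from 0.0549 to 0.108). SLC11A2, an iron and divalent metal carrier, was at 0.08 ± 0.08 (0.388).

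Metallothioneins also hold copper, and genes of copper handling were called in both directions. Of 12 tested, 5 rose and 2 fell, with a median of 0.59, where 25.9% of all tested genes rose and 27.9% fell. In the 4 libraries of low mitochondrial share 7 were higher and 2 lower, where 33.3% of tested genes were higher and 34.5% lower. The copper chaperone ATOX1 rose by 0.69 ± 0.11 in log2 units (SE; edgeR adjusted p = 0.00195), the superoxide dismutase SOD1 by 0.79 ± 0.18 (0.00854), and COMMD1, a regulator of copper export, by 0.70 ± 0.14 (0.00595). The copper pump ATP7A fell by 0.54 in log2 units (SE 0.08; edgeR adjusted p = 0.00144), and with the linear length correction its value was -0.18 (0.0604). COMMD1 did not pass with that correction either (0.29, edgeR adjusted p = 0.0964). There 3 of the 12 passed as higher and 0 as lower, where 20.5% of all genes were higher and 18.8% lower. ATOX1 (0.82, edgeR adjusted p = 0.00194) and SOD1 (0.61, 0.0241) were among those 3. The ATOX1 value depends on the length used for it, its longest annotated transcript of 4341 nt. That of COMMD1 rests on 911 nt, where its counts and FPKM imply 2765 nt. With implied lengths COMMD1 (0.56, edgeR adjusted p = 0.0148) and ATP7A (-0.27, 0.0167) kept their calls, where 44.6% of tested genes were called. With the smooth correction SOD1 (0.39, edgeR adjusted p = 0.0916), COMMD1 (0.17, 0.302) and ATP7A (0.039, 0.681) did not pass.

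**Figure D5:**
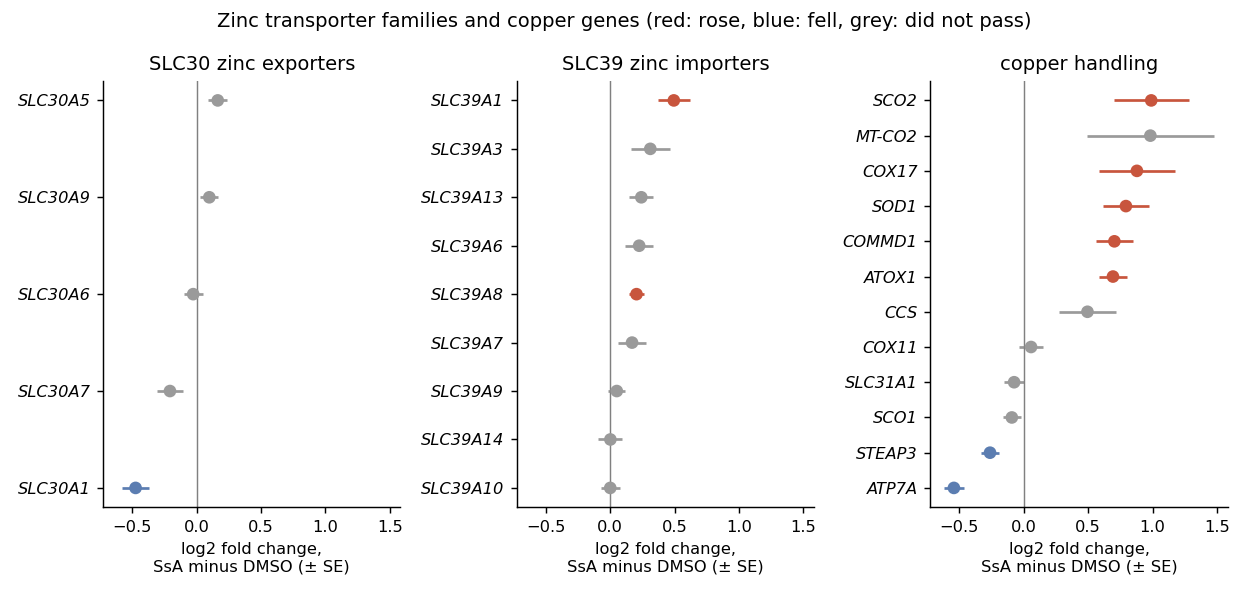
Log2 fold change with its SE for the tested genes of the SLC30 exporters, the SLC39 importers and copper handling, coloured by the edgeR call (red rose, blue fell, grey did not pass). SLC30A1 is the lowest exporter and SLC39A1 the highest importer.

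In a list of genes induced by cadmium and other heavy metals, 3 of 9 tested rose and 2 fell, with a median of -0.14, shares close to the 25.9% and 27.9% of all tested genes. HSPA1A and HSPA1B, near-identical heat shock genes whose separate values are uncertain, were at 0.99 ± 0.10 and 0.99 ± 0.09 (log2, SE; edgeR adjusted p = 4.23e-04 and 2.43e-04). DNAJB1, their co-chaperone, rose by 0.64 ± 0.07 (edgeR adjusted p = 6.11e-04), and the cystine carrier SLC7A11 fell by 0.79 in log2 units (SE 0.09; edgeR adjusted p = 4.95e-04). With the linear length correction SLC7A11 was at -0.38 (edgeR adjusted p = 0.0205), and with the smooth one it did not pass (-0.13, 0.342). HMOX1, the haem oxygenase that metals induce together with metallothioneins, was at 0.19 ± 0.10 (edgeR adjusted p = 0.159).

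Over the 6 libraries, other tested genes were set beside the log2 of the summed CPM of MT1E, MT1X and MT2A. The profile most like it was that of RPP21 (Pearson r = 0.999), followed by SF3B2 (0.999) and CCDC167 (0.998). These values describe 6 libraries in 2 groups, and 11.3% of tested genes had an r of at least 0.9.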

How the data were processed

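Polyadenylated RNA was selected and strand-marked libraries were made, per the labels' protocols. The build GRCh38 and the tools StringTie 1.3.4d, HISAT2 2.0.4 and cutadapt 1.9 are named per the submitters' processing notes. Not given in the sources used here: how reads were counted, and the strand setting and annotation release. Deposited counts were whole numbers taken as not normalised by the authors. The deposited FPKM values had been scaled by the authors for length and library size, per the file headers.

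Rows with at least 1 FPKM in at least 3 of 6 libraries (11427) were tested with edgeR 4.0.16 (TMM, quasi-likelihood test, two-sided, Benjamini-Hochberg over all tested rows, threshold 0.05). SE is the log2 fold change over the square root of F. CPM use TMM-scaled library sizes. The biological coefficient of variation was 15.3%. Alternatives used DESeq2 1.42.0, limma 3.58.1 on log2(FPKM + 1), log2(FPKM + 0.1) and log2(TPM + 1), and length offsets from the longest GENCODE 29 transcript. The scripts were tested on simulated data. Genes and lists were chosen with earlier results of these data known. Named genes were all 10 chosen genes, up to 4 others of smallest p per list, and the 3 most correlated genes.

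Same-numbered libraries did not deviate together in every pair (r of -0.34, 0.29 and -0.35), so the fits have no replicate block.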

Additional observations from a re-analysis of the deposited data

How the results depend on the processing

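The count of genes of the set that rose was 4, and 2 fell. It moved to 2 higher and 1 lower with the linear length correction, 1 and 1 with the smooth one, and 2 higher with lengths implied by counts and FPKM. On log2(FPKM + 1) and on log2(FPKM + 0.1) 1 was higher, on log2(TPM + 1) 0 were higher and 1 lower, and among genes of mean FPKM of at least 5 1 was lower (MTF1 is not tested there). Leaving out 1 library gave 2 to 5 higher and 2 lower. The smooth and implied-length corrections and the length correction in 4 libraries were chosen after seeing the data.

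Of all tested genes 6146 were called, 2956 higher and 3190 lower. The total was 3428 (1666 and 1762) among genes of mean FPKM of at least 5, 3553 (1778 and 1775) with the smooth length correction and 2495 (49 and 2446) on log2(TPM + 1). Higher calls were 914 on log2(FPKM + 1), against 3723 lower, and 886 on log2(FPKM + 0.1), against 3699 lower. Leaving out 1 library gave 4599 to 6402 calls, with 2005 to 3153 higher and 2594 to 3249 lower. The median log2 fold change of all tested genes was -0.11 on the FPKM and -0.31 on the TPM scale. On the TPM scale MTF1 passed (-1.36, limma adjusted p = 0.00230), and MT2A (0.16, 0.708), MT1E (0.34, 0.481), MT1X (0.26, 0.449), SLC39A1 (0.13, 0.821) and SLC30A1 (-0.83, 0.0729) did not. Less that median, these values were -1.05 for MTF1, 0.47 for MT2A, 0.65 for MT1E, 0.57 for MT1X, 0.44 for SLC39A1 and -0.52 for SLC30A1. The cause of these shifts was not tested.

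With the replicate block 4 genes of the set rose and 2 fell, and 4616 of all genes were called; the block ended the calls of MT1F (0.85), SLC39A8 (0.20) and CBWD1 (0.44) and changed no other call among the genes of the set and the named genes of the lists; the 3 most correlated genes were not run. Libraries of the same number shared only a number: their deviations correlated at -0.34, 0.29 and -0.35, so not every library correlated best with its own number.

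Signs turned as follows. On log2(TPM + 1) the log2 fold change was -0.13 for SLC39A6, -0.35 for SLC39A10, -0.20 for SLC30A5, -0.25 for SLC30A9, -0.15 for SLC39A8, -0.11 for SLC39A13, -0.032 for SLC39A3, -0.19 for SLC39A7, -0.062 for CBWD2 and -0.27 for SLC11A2. On log2(FPKM + 1) it was -0.15 for SLC39A10, -0.056 for SLC30A9 and -0.072 for SLC11A2, and on log2(FPKM + 0.1) -0.16, -0.061 and -0.078. Among genes of mean FPKM of at least 5 it was -0.12 for SLC39A10, -0.017 for SLC30A9 and -0.032 for SLC11A2. SLC39A10 was at -0.011 without mitochondrially encoded genes and at -0.025 with mitochondrial share as a covariate, and leaving out 1 library gave -0.042 to 0.048. SLC30A6 was at 0.030 without the expression filter, and leaving out 1 library gave -0.066 to 0.017.

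With the linear length correction SLC30A7 was at 0.13 and SLC30A6 at 0.16, with lengths implied by counts 0.0012 and 0.052, and in the 4 libraries 0.21 and 0.18 (SLC30A6 passed there). With the smooth correction MT2A was at -0.0012, SLC30A7 at 0.34, SLC30A6 at 0.24, SLC39A7 at -0.073, ATP7A at 0.039 and TRPM7 at 0.23.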
